A study of Mus musculus with 7 samples.

Results

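The genes described here are Slc6a2, Slc6a3, Slc6a4, Slc18a2, Th, Ddc, Dbh, Maoa and Maob. They encode the plasma membrane transporters that cocaine blocks, the vesicular transporter that packages the monoamines, and the enzymes that make them and break them down. They were chosen by name, and each of the 9 matched 1 probe set that carried its symbol alone, out of 22180 named genes on the array. RNA bound to GFP-tagged ribosomes of mouse medial prefrontal cortex (mPFC) was measured on 7 one-colour Affymetrix arrays. All mice, per the labels, came from a cross between ribosome TRAP mice, whose ribosomal tag needs Cre, and an ArcCre transgenic line, which expresses Cre where the activity-regulated gene Arc is on. Tamoxifen was present in both groups while cells were being labelled, and an anti-GFP antibody pulled the tagged ribosomes. The cocaine group (4 arrays, numbered 4 to 7) had received cocaine at 15 mg/kg for 2 days. The shock group (3 arrays, numbered 4 to 6) had received 20 shocks of 2 s at 0.5 mA, also for 2 days. The labels give no strain background, sex or age of the mice and no number of animals per array. The comparison asks how transcripts under translation differ between cells labelled during a rewarding and during an aversive experience.

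Dopamine, noradrenaline and serotonin are made by neurons whose cell bodies lie in the midbrain and brainstem and whose axons reach the prefrontal cortex. Released transmitter is cleared by a dopamine, a noradrenaline and a serotonin transporter in the axon membrane, which cocaine blocks, and is then repacked into vesicles or oxidised at the mitochondrial surface by monoamine oxidases. The transporters and synthetic enzymes are therefore textbook markers of the projecting neurons, although their RNA in cortex does not by itself show which cells made it. The monoamine oxidases are also made by resident cells, with Maob well known in astrocytes.

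Th and Slc18a2 carry, close to their start sites, the cyclic AMP response element, the binding motif of the activity-regulated factor CREB. Their stretches are shown because the ribosome tag marks cells by an activity-regulated gene and these are the members with this motif in the window searched. The motif TGACGTCA reads the same on both strands and is set in capitals. Sequences are from RefSeq (build GRCm38.p6), 5′ to 3′ on the strand of the gene.
Th, chr7:142900007-142900066, minus strand: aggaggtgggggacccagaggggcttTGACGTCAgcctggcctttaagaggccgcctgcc
Slc18a2, chr19:59260848-59260881, plus strand: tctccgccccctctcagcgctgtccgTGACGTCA
In Th the motif ended 37 bases before the start site, and in Slc18a2 it overlapped the start site. The window ran from 250 bases before to 50 bases after each start, and 1.79% of the 32851 promoters in the table held the motif. The table had 8 windows for 7 of the 9 members, all but Slc6a2 and Maob, and the windows of Dbh, Ddc, Slc6a4, Slc6a3 and Maoa had 0 matches.

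The deposited log2 values ran from 1.12 to 13.44 over all probe sets. Cocaine array 6 stood apart from the other arrays, with correlations over all genes of 0.993 to 0.994, against 0.996 to 0.997 among the remaining 6. The excitatory neuron marker Slc17a7, a vesicular glutamate transporter gene, was bright on all arrays, at 11.73 ± 0.04 (SD, n = 4) after cocaine and 11.65 ± 0.06 (SD, n = 3) after shock. All 12 astrocyte markers and 14 of 16 vascular and mural markers also lay above the background level defined next. Every array was a cocaine or a shock pull-down, with no array of input RNA or of untagged mice. Whether RNA of untagged cells was carried over in the pull-down was therefore not tested. Fewer labelled cells of a type, less RNA per cell and less carried-over RNA cannot be told apart in these values.

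Most of these genes gave values within the range of genes that cortex is not known to use widely. The values of 1105 olfactory receptor genes served as background, with a median mean level of 3.25, a 95th percentile of 5.53 and a highest mean of 7.62. Maoa, with a mean of 7.68 over the 7 arrays, and Maob, with 7.78, lay above every olfactory receptor gene. Ddc (6.10), Th (5.79), Slc6a3 (5.79) and Dbh (5.65) lay above the 95th percentile, but 18, 32, 32 and 43 olfactory receptor genes had higher means than these members. Slc6a2 (5.02), Slc18a2 (4.89) and Slc6a4 (4.52) lay below it, with 106, 123 and 192 olfactory receptor genes above them. In all, 6 of the 9 members lay above the 95th percentile, where 60.6% of all genes did. At the 99th percentile (6.27) Maoa and Maob were the 2 members left, and at the 90th (4.99) Slc6a2 joined the 6. Probe sets differ in how strongly they respond to their RNA, so a value near the background does not show that a transcript was absent, and members are not ranked by amount here.

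**Figure D1:**
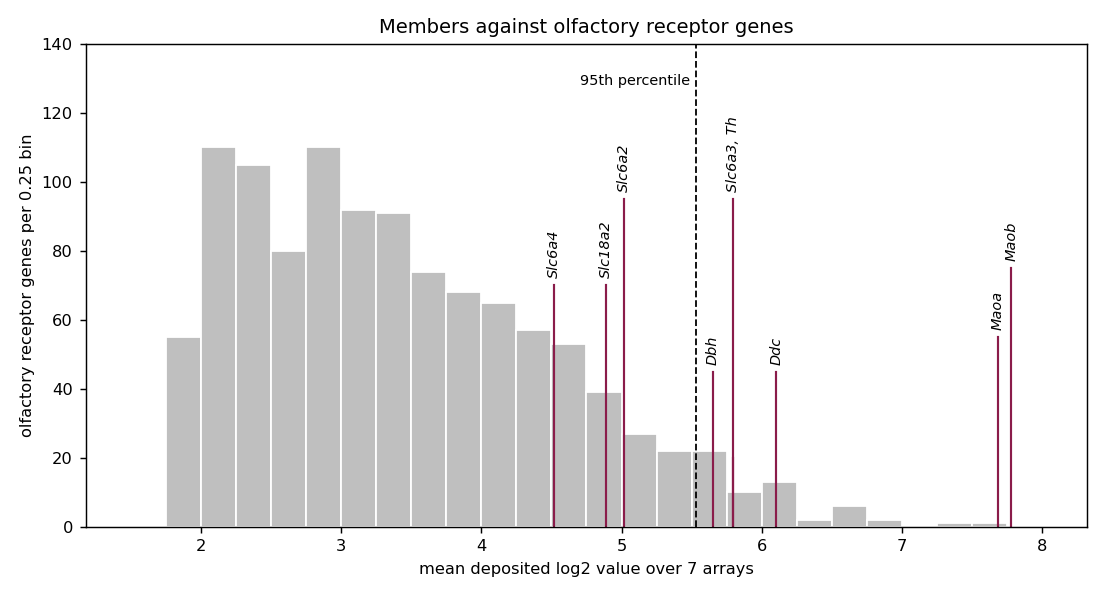
Histogram of the mean deposited log2 value (x axis, over 7 arrays) of 1105 olfactory receptor genes, counted per bin of 0.25 (y axis), with vertical lines at the means of the 9 members and a dashed line at the 95th percentile, 5.53. Line heights carry no value. Maoa (7.68) and Maob (7.78) stand to the right of every olfactory receptor gene, while the other 7 members stand between 4.52 and 6.10, among them.

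Exact repeats were frequent in these values. The same number, to every deposited decimal, stood on 3 or more arrays for 5 of the 9 members, where 40.9% of all genes did so. For Slc6a3 and Th 5 of 7 arrays shared a value, and for Slc6a2 and Dbh 4 arrays did. Repeats lower the SD of the arrays that share a value, as on all shock arrays of Slc6a2, Slc6a3 and Dbh. Cocaine SDs were still 0.18 for Slc6a2 and 0.25 for Dbh, while the limma fit takes 1 variance for both groups. Intervals of members with repeats are to be read with that limit. Of the 9066 genes with 3 or more identical values, 99.96% had the median of the 7 arrays as the repeated value, and so did the 5 members. A value on 4 or more of 7 arrays is the median by arithmetic. For Slc6a2, Slc6a3 and Dbh all shock arrays held that median, as did at least 1 cocaine array. Their equal shock values are therefore not read as agreement between separate measurements. No source used here states the step that gave identical values.

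Between cocaine and shock, no member was called. With limma and Benjamini-Hochberg adjustment over all 22180 genes, 0 of the 9 members passed an adjusted p of 0.05, as did 0% of all genes (smallest adjusted p = 0.938). At an unadjusted p under 0.05 there was 1 member, against 3.1% of all genes. That member (Maoa) was lower in the cocaine group, as were 1.57% of all genes, and 0 were higher, against 1.53%. By mean, 6 of the 9 were lower in the cocaine group, where 49.1% of all genes were, and the median difference of the 9 was -0.050 against 0.0016 over all genes. In 0 members did the groups fail to overlap, where 1.11% of all genes lay wholly lower and 1.25% wholly higher in the cocaine group.

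**Figure D2:**
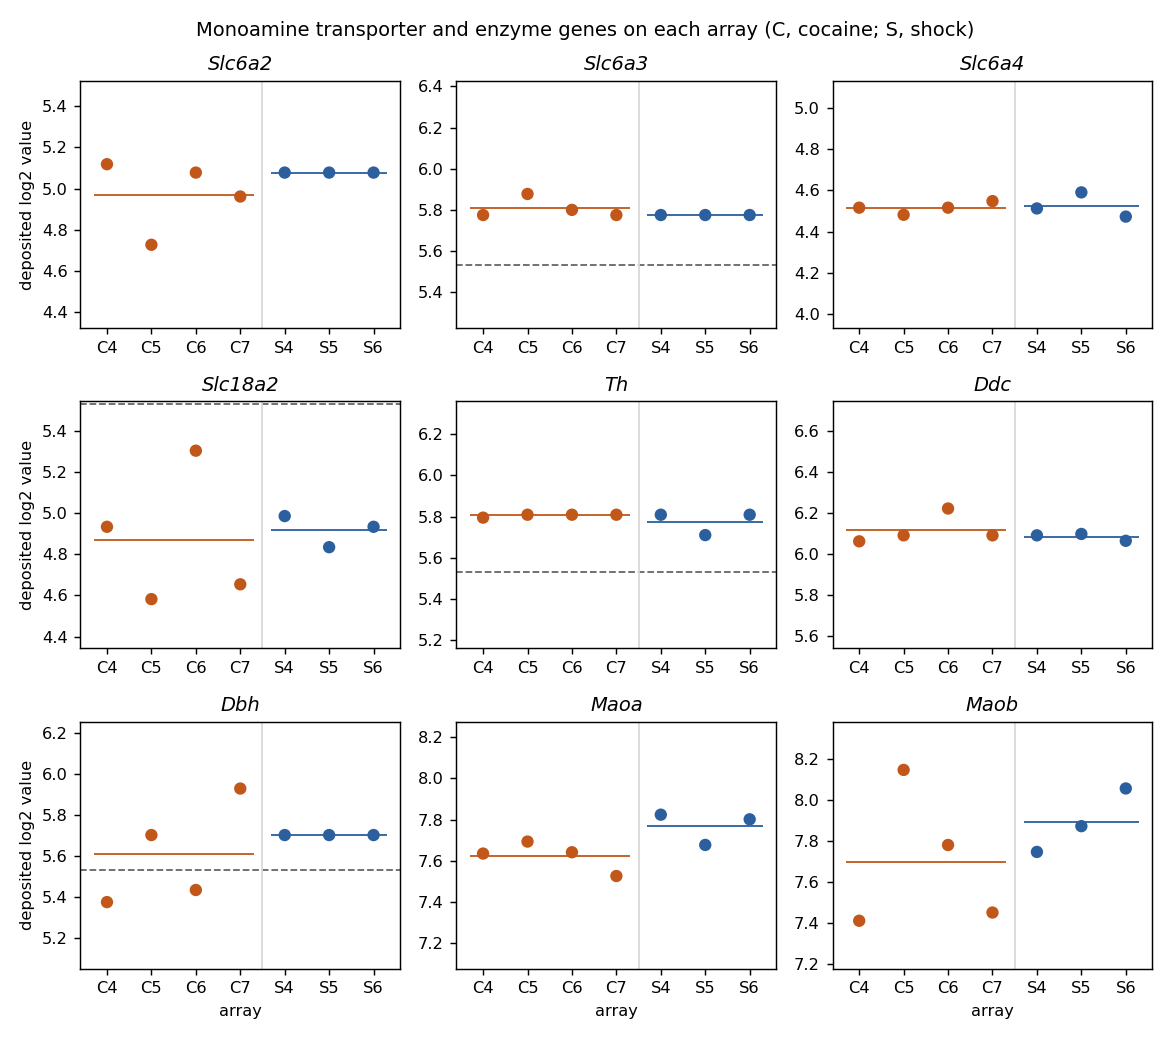
Deposited log2 values (y axis) of the 9 members on each array (x axis), with cocaine arrays C4 to C7 in orange and shock arrays S4 to S6 in blue. Each panel spans 1.2 on the log2 scale, bars are group means, and the dashed line, where it falls inside a panel, is the 95th percentile of olfactory receptor genes (5.53). The groups overlap in every panel, Maob and Slc18a2 spread most, and several panels repeat a value.

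Of the transporters that cocaine blocks, Slc6a3, the dopamine transporter gene, read 5.77 on cocaine arrays 4 and 7, 5.88 on array 5 and 5.80 on array 6, and 5.77 on each shock array. Its cocaine arrays were therefore at or just above the shock value. The difference of 0.032 (SE 0.037) had a 95% interval from -0.056 to 0.12 (limma, adjusted p = 0.938) and was 0.0083 without cocaine array 5. Slc6a2, the noradrenaline transporter gene, read 5.12, 4.73, 5.08 and 4.96 on cocaine arrays 4 to 7 and 5.08 on each shock array. Its cocaine minus shock difference of -0.11 (SE 0.09, interval -0.33 to 0.12, limma, adjusted p = 0.938) came mostly from cocaine array 5, and without that array it was -0.025.

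Slc6a4, the serotonin transporter gene, read 4.52, 4.48, 4.52 and 4.55 on cocaine arrays 4 to 7 and 4.51, 4.59 and 4.47 on shock arrays 4 to 6. The shock arrays enclosed the cocaine arrays on both sides, and the difference was -0.0098 (SE 0.040, interval -0.10 to 0.084, limma, adjusted p = 0.979), with a sign that turned when cocaine array 5 or shock array 5 was left out and after median centring. For these transporters the intervals ended at a difference of 1.26-fold lower in the cocaine group for Slc6a2, 1.04-fold for Slc6a3 and 1.07-fold for Slc6a4. Upward they ended at 1.08-fold, 1.09-fold and 1.06-fold. These limits are those of the array values, which near the background can understate a change in RNA. For Slc6a2 and Slc6a3 the shock SD was 0 because 1 value was repeated, so their limits may be too narrow.

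Slc18a2, the vesicular monoamine transporter gene that loads dopamine, noradrenaline and serotonin into vesicles, read 4.93, 4.58, 5.30 and 4.65 on cocaine arrays 4 to 7 and 4.99, 4.83 and 4.93 on shock arrays 4 to 6. The highest and both lowest values were in the cocaine group, and the highest was on array 6, the array that stood apart. The difference was -0.050 (SE 0.17, interval -0.46 to 0.36, limma, adjusted p = 0.975). Leaving out cocaine array 6 gave -0.19, leaving out cocaine array 5 gave 0.046 and leaving out cocaine array 7 gave 0.022, so the direction was not settled.

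Among the synthetic enzymes, Th, the tyrosine hydroxylase gene that starts catecholamine synthesis, read 5.79 on cocaine array 4 and 5.81 on cocaine arrays 5 to 7. On shock arrays 4 and 6 it read 5.81 and on shock array 5 it read 5.71. All values but that of shock array 5 lay between 5.79 and 5.81, and without that array the difference of 0.029 (SE 0.036, interval -0.057 to 0.12, limma, adjusted p = 0.939) was -0.0035. Ddc, the aromatic amino acid decarboxylase gene that acts in dopamine and in serotonin synthesis, read 6.06, 6.09, 6.22 and 6.09 on cocaine arrays 4 to 7 and 6.09, 6.10 and 6.07 on the shock arrays. Its difference of 0.032 (SE 0.046, interval -0.078 to 0.14, limma, adjusted p = 0.946) was -0.0031 without cocaine array 6, which held its highest value.

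Dbh, the dopamine beta-hydroxylase gene that turns dopamine into noradrenaline, read 5.38, 5.70, 5.43 and 5.93 on cocaine arrays 4 to 7 and 5.70 on each shock array. Its cocaine values lay on both sides of the shock value, and on cocaine arrays 4 and 6 they were under the 95th percentile of olfactory receptor genes on the same array. The difference was -0.092 (SE 0.13, interval -0.41 to 0.22, limma, adjusted p = 0.946). Leaving out cocaine array 4 gave -0.014, cocaine array 6 gave -0.033 and cocaine array 7 gave -0.20.

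Markers of the neurons that make monoamines were mixed, with 12 of 22 measured above the 95th percentile of olfactory receptor genes and 10 below it. Pitx3, a transcription factor gene of midbrain dopamine neurons, averaged 5.49 over the 7 arrays, and Tph2, the rate-limiting enzyme of serotonin synthesis in neurons, averaged 4.91, both under it. Of the measured markers, 7 of 12 for dopamine neurons, 3 of 5 for serotonin neurons and 2 of 5 for noradrenaline neurons lay above it, where 60.6% of all genes did. Nr4a2 (9.30) and Aldh1a1 (8.04) of the dopamine list and Cyb561 (8.17) of the noradrenaline list, chosen after their values were seen, lay above every olfactory receptor gene, and Lmx1b of the serotonin list, chosen in the same way, was at 6.53, above the 99th percentile. None of these is limited to monoamine neurons. By mean, 8 of 12 dopamine, 4 of 5 serotonin and 3 of 5 noradrenaline markers were lower in the cocaine group, where 49.1% of all genes were. None passed the adjustment. Tph2, under the background level, was higher in the cocaine group by 0.13 (SE 0.05, limma, unadjusted p = 0.0532, adjusted p = 0.938), with overlap. Cyb561 lay wholly higher in that group (difference 0.050), as did 1.25% of all genes. Fev, a defining gene of serotonin neurons, was not analysed here.

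The monoamine oxidases were the members clear of the background, and both averaged lower in the cocaine group without passing the correction. Maoa, whose enzyme prefers serotonin and noradrenaline, read 7.63, 7.69, 7.64 and 7.53 on cocaine arrays 4 to 7 and 7.82, 7.68 and 7.80 on shock arrays 4 to 6. Shock arrays 4 and 6 were above every cocaine array, and shock array 5 fell within the cocaine range, just under cocaine array 5. The means were 7.62 ± 0.07 (SD, n = 4) and 7.77 ± 0.08 (SD, n = 3). The difference was -0.14 (SE 0.06, interval -0.28 to -0.011), which is 1.10-fold.

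By limma the unadjusted p for Maoa was 0.0381 and the adjusted p = 0.938, and an exact two-sided permutation over the 35 splits of the arrays gave p = 0.0857, where 0.0286 is the smallest possible. Leaving out 1 array kept Maoa lower in the cocaine group each time, with differences of -0.19 to -0.11. Its unadjusted limma p was above 0.05 without cocaine array 4 (0.0642), 6 (0.0572) or 7 (0.0750), without shock array 4 (0.122) or 6 (0.108), after median centring (0.0689), without moderation of the variances (0.0519), and with the array number as a block, a fit that also drops cocaine array 7 (0.142).

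Maob, whose enzyme prefers phenylethylamine and also oxidises dopamine, read 7.41, 8.15, 7.78 and 7.45 on cocaine arrays 4 to 7 and 7.75, 7.87 and 8.06 on shock arrays 4 to 6. Cocaine arrays 4 and 7 were the lowest of all and cocaine array 5 the highest, so the cocaine group enclosed the shock group. The means were 7.70 ± 0.34 (SD, n = 4) and 7.89 ± 0.16 (SD, n = 3). The difference was -0.19 (SE 0.19, interval -0.64 to 0.25, limma, adjusted p = 0.938), and the exact two-sided permutation gave p = 0.371. It was lower in the cocaine group whichever array was left out, from -0.34 without cocaine array 5 to -0.099 without cocaine array 4, and it was -0.11 without cocaine array 7 or shock array 6. Without cocaine array 6, the array that stood apart, the Maob difference was -0.22 and the Maoa difference -0.15. Without cocaine array 5 its unadjusted limma p was 0.0388 (adjusted p = 0.871).

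**Figure D3:**
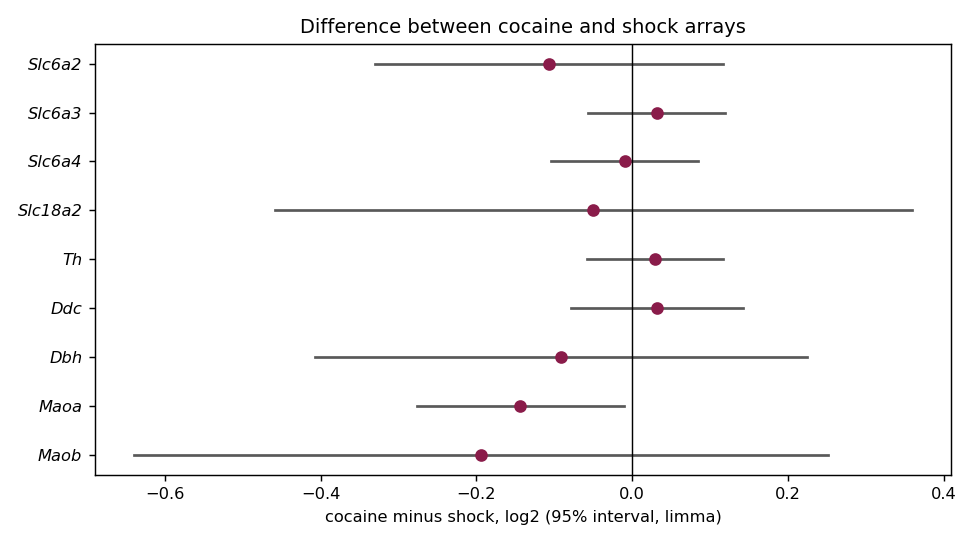
Cocaine minus shock difference on the log2 scale (x axis) for each of the 9 members (y axis), as points with 95% intervals from limma. The interval of Maoa (-0.28 to -0.011) leaves out 0 before correction for the number of genes, and the intervals of the other 8 members hold 0.

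Maoa and Maob lie next to each other among the protein-coding genes of the RefSeq table (GRCm38.p6), but their values did not follow each other on every array. Maob had a range of 0.73 over the 7 arrays and Maoa one of 0.30. On cocaine array 5 Maob was 0.36 above its own mean and Maoa 0.0079 above, while on shock array 4 Maob was 0.034 below and Maoa 0.14 above. On cocaine array 7 both were low, by 0.33 for Maob and 0.16 for Maoa.

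Scores of marker genes are given beside the oxidases, array by array. A marker score is the mean over a list of each gene's value minus its own mean over the 7 arrays. The astrocyte score was -0.17, 0.11, 0.0049 and -0.18 on cocaine arrays 4 to 7 and -0.019, 0.14 and 0.12 on shock arrays 4 to 6. It was lowest on cocaine arrays 4 and 7, the arrays on which Maob was lowest, while Maoa on shock array 5, where the score was highest, stood at -0.0085 relative to its own mean. The inhibitory neuron score was likewise lowest on cocaine arrays 4 (-0.092) and 7 (-0.10), so low scores there were not limited to glial or vascular lists. It was at 0.052 and -0.025 on cocaine arrays 5 and 6 and at -0.012, 0.0026 and 0.18 on shock arrays 4 to 6. The microglia score was also lowest on cocaine arrays 4 (-0.042) and 7 (-0.031). Its highest cocaine value (0.00087) was under its lowest shock value (0.0041), while 0 of its 8 genes lay wholly lower in the cocaine group. Of all genes, 1.11% did so, and 3 of the 8 microglia genes were higher by mean. The score of the 15 other SLC6 transporter genes separated too, with a highest cocaine value of -0.0021 and a lowest shock value of 0.017. The excitatory neuron score was not low on cocaine arrays 4 (0.032) and 7 (0.020). The oligodendrocyte score was also lowest on cocaine array 4 but highest on cocaine array 7, where both oxidases were low. It was -0.11, 0.11, -0.085 and 0.13 on cocaine arrays 4 to 7 and 0.040, -0.0036 and -0.082 on shock arrays 4 to 6. All 12 astrocyte markers were lower in the cocaine group by mean (median difference -0.14), where 49.1% of all genes were. Among them was the intermediate filament gene Gfap (-0.16, SE 0.09), while 0 of the 12 passed limma's adjusted or unadjusted threshold. Aldh1l1, another astrocyte gene, differed by -0.032 (SE 0.094), and by 0.022 without cocaine array 4.

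The vascular and mural score was -0.18, 0.031, 0.015 and -0.38 on cocaine arrays 4 to 7 and 0.12, -0.0016 and 0.39 on shock arrays 4 to 6. It was lowest on cocaine array 7, where Maoa was lowest, and highest on shock array 6. All 16 markers of that list were lower in the cocaine group by mean (median difference -0.27), with 4 at an unadjusted limma p under 0.05 and 0 past the adjustment. Of all genes, 49.1% were lower by mean and 1.57% were lower at that unadjusted threshold. Cldn5, a tight junction gene of brain endothelium, differed by -0.29 (SE 0.12, limma, adjusted p = 0.938), and its groups did not overlap. In all, 3 of the 16 lay wholly lower in the cocaine group, where 1.11% of all genes did. Of the other marker lists, 2 of 6 excitatory, 8 of 10 inhibitory, 5 of 8 microglia, 5 of 11 oligodendrocyte and 3 of 7 mast cell and platelet genes were lower by mean, with 0 past the adjustment. These lists were made with results of the same arrays known, so they are no independent evidence of a direction.

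With the astrocyte score of each array subtracted, a step chosen after seeing the data, the Maob difference was -0.054 in place of -0.19, and its range over the arrays was 0.45 in place of 0.73. That difference was -0.15 without cocaine array 5, 0.0031 without cocaine array 4 and 0.0064 without shock array 6, so 1 array could turn its sign. The Maoa difference was then -0.0040, which is the Maoa difference less that of the score (-0.14), and its range over the arrays stayed at 0.30. It ran from -0.077 without shock array 5 to 0.074 without shock array 4. The vascular and mural score itself differed by -0.30, beyond the difference of either gene, so subtracting it had to turn the sign. The differences were then 0.15 for Maoa and 0.10 for Maob. These were 0.061 for Maoa without shock array 6 and 0.0052 for Maob without cocaine array 5. No test is given on these differences. A subtraction of this kind assumes that the gene scales with the score at a slope of 1. Whether cell composition or RNA carried over from untagged cells has a part in the oxidase values was not tested.

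**Figure D4:**
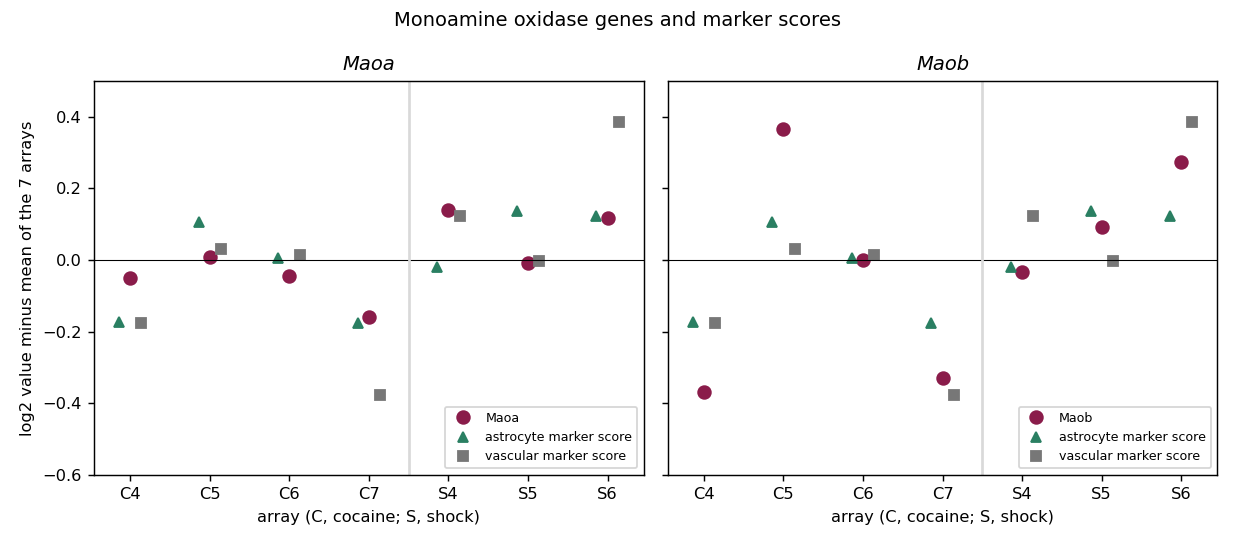
Values of Maoa (left) and Maob (right) on each array, as the log2 value minus the mean of the 7 arrays (y axis, circles), beside the astrocyte marker score (triangles) and the vascular and mural marker score (squares) on the same scale. C4 to C7 are cocaine arrays and S4 to S6 shock arrays (x axis). Maob and both scores are low on C4 and C7, and Maob on C5 (0.36) lies above both scores there (0.11 and 0.031).

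Related transporters gave no call between the groups. Of 3 measured transporters that carry monoamines with low affinity, 2 lay above the background level. Slc29a4, the plasma membrane monoamine transporter gene, was at 7.94 ± 0.07 after cocaine (SD, n = 4) and at 7.88 ± 0.11 after shock (SD, n = 3), and Slc47a1, a cation extrusion transporter gene, averaged 5.62 and 5.64. Slc22a3, known for the extraneuronal monoamine transporter, was not analysed here. Of 15 other measured SLC6 genes, the family of Slc6a2 to Slc6a4, 9 lay above the background level and 0 passed limma's adjustment. By mean, 10 of them were lower in the cocaine group, where 49.1% of all genes were.

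The named SLC6 relatives were Slc6a13 and Slc6a11, which carry GABA, and Slc6a8, the creatine transporter gene. Slc6a13 read 6.45 to 6.68 in the cocaine group and 6.72 to 6.95 in the shock group, without overlap, a difference of -0.23 (SE 0.08, limma, unadjusted p = 0.0281, adjusted p = 0.938). Of all genes, 1.11% lay wholly lower in the cocaine group. Slc6a11 differed by -0.18 (SE 0.09) and Slc6a8 by 0.084 (SE 0.053), and the groups overlapped in both. Slc6a11 was at -0.12 without cocaine array 4, and Slc6a8 at 0.026 without shock array 6. Among the relatives of Slc18a2, 1 of 3 lay above the background level, Slc18b1, a vesicular polyamine transporter gene, with 8.88 in both groups.

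Cofactor and breakdown genes of the pathway gave no call either. Of 11 other synthesis and cofactor genes, 5 lay above the background level and 0 passed the adjustment. Qdpr, which regenerates the tetrahydrobiopterin cofactor of tyrosine and tryptophan hydroxylase, was at 7.82 ± 0.02 after cocaine (SD, n = 4) and at 7.79 ± 0.02 after shock (SD, n = 3). Pcbd1 and Pcbd2, which take part in the same recycling, differed by -0.14 (SE 0.10) and 0.045 (SE 0.051).

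All 9 other breakdown genes lay above the background level and 0 passed. By mean, 5 of them were lower in the cocaine group, where 49.1% of all genes were. Aldh2, a mitochondrial aldehyde dehydrogenase gene that can act on the aldehydes made by monoamine oxidases, was at 8.59 ± 0.15 after cocaine (SD, n = 4) and at 8.74 ± 0.14 after shock (SD, n = 3), which differ by -0.16 (SE 0.10). Aldh7a1, another aldehyde dehydrogenase gene, differed by -0.14 (SE 0.08) and Sult1a1, a sulfotransferase gene for phenols and catechols, by -0.065 (SE 0.050), which was -0.0080 without shock array 6. Like Maob, both aldehyde dehydrogenase genes were lowest on cocaine array 4.

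Partners of the transporters were all above the background level, with 6 of 12 higher and 6 lower by mean and 0 past the adjustment. Stx1a, a syntaxin that binds the plasma membrane transporters, differed by 0.051 (SE 0.038), Syngr3, a synaptic vesicle protein that binds the dopamine transporter, by 0.065 (SE 0.052), and Tgfb1i1, a focal adhesion adaptor that also binds it, by -0.064 (SE 0.046). These genes serve many cells and synapses, and none is particular to monoamine neurons.

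For the 5 members above the background level on all 7 arrays, the 2 genes with the most similar profile were found by the root mean square difference between values standardised over the 7 arrays, where 0 is an identical shape. Maoa lay nearest to Gjb2 (0.19) and Cyp7b1 (0.19), both lowest on cocaine array 7. Maob lay nearest to Rida (0.18) and Stom (0.20). For Slc6a3 they were E030013I19Rik (0.012) and Stam2 (0.10), for Th Gmeb1 (0.084) and Atp5c1 (0.11), and for Ddc Chd7 (0.074) and Relch (0.077). In these last 3 members the likeness rests on 1 array that departs from values shared by others: cocaine array 5 for Slc6a3, shock array 5 for Th and cocaine array 6 for Ddc. With 7 arrays and 13442 genes above the background level, near matches of this size are a description only.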

How the data were processed

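The values are the deposited log2 expression values of 41345 probe sets on 7 arrays, a scale read from the values. The authors used Transcriptome Analysis Console, per the submitters' processing notes. For summarization, background correction and normalization the method is not given in the sources used here, so values may be relative to the other probe sets. Gene names come from the platform annotation (23521 probe sets with 1 symbol), and genes with several were read from the one of highest mean. Differences are cocaine minus shock, tested two-sided over all 7 arrays without covariates by lmFit and eBayes (limma 3.58.1, R 4.3.3) with Benjamini-Hochberg adjustment over 22180 genes. Intervals are unadjusted 95% intervals. No lists were tested.

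The members and lists were chosen with earlier results of these data known. Named beside the 9 members were up to 3 genes per pathway list of smallest unadjusted p above the olfactory level, 2 genes nearest to each member above that level on all 7 arrays, and Slc17a7, Gad1, Gfap, Aldh1l1, Cldn5, Pitx3, Tph2 and Fev. Nothing in the labels says that arrays came from separate animals, so the spread behind each p-value is that between arrays and may be technical. Arrays have no read depth, and their number limits the precision. The fit was also run on simulated data, which held no repeated values and so cannot check the intervals of members with repeats. Protein sequences were not used here.

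Alternatives tried were each array left out, median centring, quantile normalization, a filter on dim genes, averaged probe sets, array weights, moderation with a trend, robust or absent, a replicate block, exact permutation and other background percentiles or genes.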

Additional observations from a re-analysis of the deposited data

Results flagged for a closer look

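In the cocaine group, 4 of 48 measures had 1 array apart from the rest by Dixon's 95% limit for 4 samples, where chance gives about 1 in 20 for values without ties. For Th, cocaine array 4 was lowest (5.79), with a gap of 1.0 of the range, since the other cocaine arrays shared 1 value (5.81). The same gap of 1.0, again with 3 cocaine arrays at 1 value, was found for Pcbd2 on cocaine array 4 (6.41 against 6.49), Sult1a1 on cocaine array 7 (6.37 against 6.41) and Pitx3 on cocaine array 7 (5.52 against 5.50). With 3 arrays, shock values were not put to this test.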

How the results depend on the processing

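Under every alternative to the limma fit, 0 members, 0 listed genes and 0 genes in all passed an adjusted p of 0.05, while 688 genes had an unadjusted p under 0.05 in the fit as reported (437 with dim genes left out, where fewer genes were tested, and 419 without moderation). The count of members at an unadjusted p under 0.05 was 1, ranged from 0 to 2 when 1 array was left out, and was 0 after median centring, without moderation and with the replicate block. The count above the olfactory level was 6, and 2 at the 99th percentile. Maoa, Maob, Slc6a2, Slc6a3 and Dbh kept their direction under each alternative of the limma fit, though several of these could not turn it. Changed moderation and averaged probe sets left these differences as they were. For Slc6a2, Slc6a3 and Dbh, with 1 value on all shock arrays, leaving out a shock array did so too. Subtracting the vascular score, which differed by -0.30, turned Maoa (0.15) and Maob (0.10) by arithmetic. When 1 array was left out, the difference ranged from -0.036 to 0.023 for Slc6a4, -0.19 to 0.046 for Slc18a2, -0.0035 to 0.046 for Th, -0.0031 to 0.050 for Ddc, -0.071 to 0.033 for Slc47a1, -0.068 to 0.056 for Slc18b1, -0.0068 to 0.081 for Pcbd2, -0.090 to 0.048 for Gad1 (-0.035 with all arrays), -0.089 to 0.022 for Aldh1l1, -0.0013 to 0.043 for Gmeb1, -0.00075 to 0.078 for Chd7 and -0.0020 to 0.059 for Relch. Without a turn of sign it ranged from 0.0067 to 0.098 for Slc29a4, -0.20 to -0.060 for Pcbd1, -0.20 to -0.083 for Aldh7a1, -0.23 to -0.10 for Aldh2, -0.10 to -0.030 for Tgfb1i1, 0.025 to 0.075 for Stx1a and 0.031 to 0.094 for Syngr3. Median centring turned Slc6a4 (0.010) and Slc18b1 (0.015). The cause was not tested.

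Same-numbered arrays 4, 5 and 6 had correlations of 0.14, 0.091 and 0.14 between their deviations from the group means, and each correlated best with its own number, a hint from the data only, so the numbers were not taken as pairs. With the number as a replicate block on these arrays, the Maoa difference was -0.11 (limma, unadjusted p = 0.142, adjusted p = 0.871), Slc18a2 was 0.022 and Aldh1l1 0.014. This fit also drops cocaine array 7, and leaving out that array without the block gave the same differences.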
